A study of Homo sapiens with 6 samples.

Results

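The replication fork and DNA polymerase genes are 42 genes for the proteins that open, copy and seal DNA at the fork. They were taken by symbol from a table of 63009 genes with 1 FPKM value per library, and all 42 were found. RFC2 was listed under 2 identifiers, of which the row with the higher mean (19.4 FPKM against 0) was used. RNA was measured in ERRAS cells, which are IMR90 human lung fibroblasts carrying a retroviral H-RasV12 fused to the estrogen receptor ligand-binding domain, so that tamoxifen switches on the oncogene. In Ras-induced mitotic cells H-RasV12 was active for 4 days (100 nM tamoxifen by the sample labels, whereas the study's methods give the same figure in ng/ml of 4-hydroxytamoxifen), and control mitotic cells carried the same construct without tamoxifen. Both groups were grown at low oxygen with G418 and arrested with 1 μM dimethylenastron (DME), a blocker of the spindle motor Eg5, and the loose mitotic cells were washed off, giving 3 libraries per group. Each group is therefore an arrested fibroblast population with a viral transgene, not cells passing freely through S phase. The data speak to whether the transcripts of the replication machinery in arrested mitotic cells differ after 4 days of Ras signaling. The paper reports that activated Ras lengthened mitotic arrest under DME. Whether transcripts differed at entry into mitosis or changed during the arrest was not tested.

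At the fork, the helicase that unwinds DNA is completed when CDC45 and the GINS tetramer join the MCM ring. This step is set off by the CDC7-DBF4 kinase with the help of TOPBP1, and MCM10 helps the finished helicase start. Polymerase alpha-primase lays short primers, polymerase epsilon extends the leading strand and polymerase delta the lagging strand, both held on DNA by the PCNA ring that the RFC complex loads. FEN1, DNA2, RNase H2 and LIG1 then turn the lagging strand fragments into one strand. Many of these genes are transcribed under E2F factors as cells move from G1 into S phase, and their transcription falls when cells leave the cycle.

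The letters of an E2F site stood close to the start site of many of these genes. RefSeq promoters, each 250 bases before to 50 bases after a start site, were matched for 36 of the 42 genes (not for DSCC1, RPA2, RPA3, POLD3, DNA2 or GINS4). The E2F words searched were TTTCCCGC, TTTCGCGC, TTTGCCGC and TTTGGCGC on both strands. At least 1 stood in 13 of the 36 promoters (36.1%), against 3.31% of all 35116 promoters of that length in the table. The background counted every listed promoter and the matched genes 1 each, and it was not matched for expression or base composition. In 11 of the 13 the word reads on the strand opposite to the gene. The 13 stretches are shown because these promoters held the word more often than promoters at large, and the other 23 promoters held none. Each is 30 bases of the gene's own strand, 5′ to 3′, with the E2F word in capitals and its GRCh37 position:
PCNA, chr20:5107309-5107338, minus strand: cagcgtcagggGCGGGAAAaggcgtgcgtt
RFC3, chr13:34392220-34392249, plus strand: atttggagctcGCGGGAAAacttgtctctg
POLA1, chrX:24711887-24711916, plus strand: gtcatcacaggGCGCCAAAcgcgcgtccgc
POLA2, chr11:65029369-65029398, plus strand: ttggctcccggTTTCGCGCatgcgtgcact
POLE, chr12:133263928-133263957, minus strand: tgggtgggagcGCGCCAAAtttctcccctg
POLE2, chr14:50154919-50154948, minus strand: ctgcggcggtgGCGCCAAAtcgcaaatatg
LIG1, chr19:48673697-48673726, minus strand: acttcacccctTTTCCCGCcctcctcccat
GINS1, chr20:25388303-25388332, plus strand: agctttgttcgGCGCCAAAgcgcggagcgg
GINS2, chr16:85722573-85722602, minus strand: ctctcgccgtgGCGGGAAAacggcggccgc
GINS3, chr16:58426359-58426388, plus strand: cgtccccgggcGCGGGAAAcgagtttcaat
TOPBP1, chr3:133380774-133380803, minus strand: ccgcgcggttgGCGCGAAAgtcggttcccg
ORC3, chr6:88299830-88299859, plus strand: cgcgagggcgcGCGGGAAAtcccgagtgca
CLSPN, chr1:36235566-36235595, minus strand: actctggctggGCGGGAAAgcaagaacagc

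Ras-induced mitotic cells carried less RNA for 12 of the 42 genes and more for 1. The genes that fell were MCM10, GINS2, GINS3, POLA1, PRIM1, PCNA, RFC1, RFC2, RFC3, RFC4, LIG1 and CLSPN. The gene that rose was FEN1. The other 29 did not pass the test, which was limma on log2(FPKM + 1) over the 13993 genes that averaged 1 FPKM or more, with a gene called at a Benjamini-Hochberg adjusted p of 0.05 or less. FPKM values are fragment counts scaled for transcript length and for the mapped fragments of a library, and fold changes on log2(FPKM + 1) understate the change of genes of low FPKM. Of all tested genes, 5.67% were called lower and 11% higher, so that the falls were 28.6% of these genes against 5.67% in the background. The median log2 fold change was -0.24 over the 42 genes and 0.10 over all tested genes, and 37 of the 42 lay under the median of all tested genes. Fold changes are given with limma's standard error (SE), and group means ± SD over the 3 libraries of a group. In this RNA from many cells, fewer cells with a transcript and less of it per cell cannot be told apart.

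**Figure D1:**
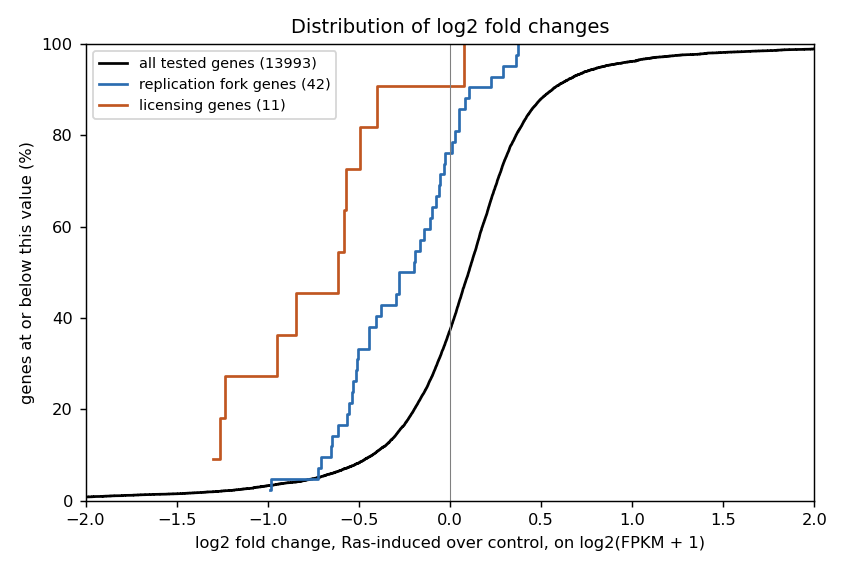
Cumulative share of genes (y axis, percent) at or below each log2 fold change of Ras-induced over control mitotic cells (x axis, log2(FPKM + 1) scale), for all 13993 tested genes, the 42 replication fork genes and 11 licensing genes. The line of the replication fork genes lies to the left of all genes, with medians of -0.24 and 0.10, and that of the licensing genes lies further left, with a median of -0.61.

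In 19 of the 42 genes all 3 Ras-induced libraries lay under all 3 control libraries, and in 2 genes above them, where 12.8% of all tested genes lay apart downward and 27.1% upward. The number called depended on the libraries. Without 1 library the count of falls was 6 (without control library 1), 5 (without control library 2), 10 (without control library 3), 6 (without Ras-induced library 1), 12 (without Ras-induced library 2) or 5 (without Ras-induced library 3). Falls over all tested genes dropped in the same fits, from 793 to between 371 (without control library 2) and 748 (without control library 3). MCM10, POLA1, GINS3, RFC1 and LIG1 were called lower in every alternative fit that tested them, but a required change of at least 1 on the log2 scale left 0 of the 42 genes called. POLA1 and MCM10 were past that size with a pseudocount of 0.1 (-1.25 and -1.10), with quantile normalization (-1.07 and -1.08) and with upper-quartile scaling (-1.08 for both). The scaling of the libraries moved the split by direction. Over all tested genes 793 were lower and 1543 higher as deposited, 1109 and 1044 after quantile normalization, and 1101 and 921 after scaling to a common upper quartile. For the 42 genes quantile normalization gave 14 lower and 0 higher, and upper-quartile scaling gave 16 lower and 0 higher.

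Markers of the population moved as well. Of 10 mitotic genes 4 (BUB1, CCNB2, CENPF and PLK1) were called lower, in 7 of 10 all Ras-induced libraries lay under all controls, their median log2 fold change was -0.23 against -0.24 for the replication genes, and the summed level of the 10 was 1843 to 1901 FPKM in control and 1509 to 1661 FPKM in Ras-induced libraries. In 4 of 6 fibroblast genes all Ras-induced libraries lay under all controls. COL1A2 and THY1 were called lower, COL1A1 and COL3A1 were at 40.9% and 45.1% of control (adjusted p = 0.0501 and 0.0553, limma), PDGFRB was at 100.0% and VIM was 2149 FPKM in control and 2248 FPKM in Ras-induced cells on average. For G1 to S markers 3 of 4 genes were tested and 0 called, with sums of 279 to 307 FPKM and 253 to 298 FPKM that are nearly all CCND1. In the same set E2F1 was at 43.7% of control (log2 fold change -1.04, adjusted p = 0.0694, limma, and 0.0282 to 0.184 over the alternatives). The 4 blood markers summed to at most 0.288 FPKM and the 4 endothelial markers to at most 0.138 FPKM in any library, with CD3E and PECAM1 at 0 throughout. The 4 epithelial markers summed to 16.97 to 32.8 FPKM in control and 19.6 to 21.2 FPKM in Ras-induced libraries, nearly all of it KRT5 and KRT14. The part of these shifts in the values of the replication genes was not tested.

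**Figure D2:**
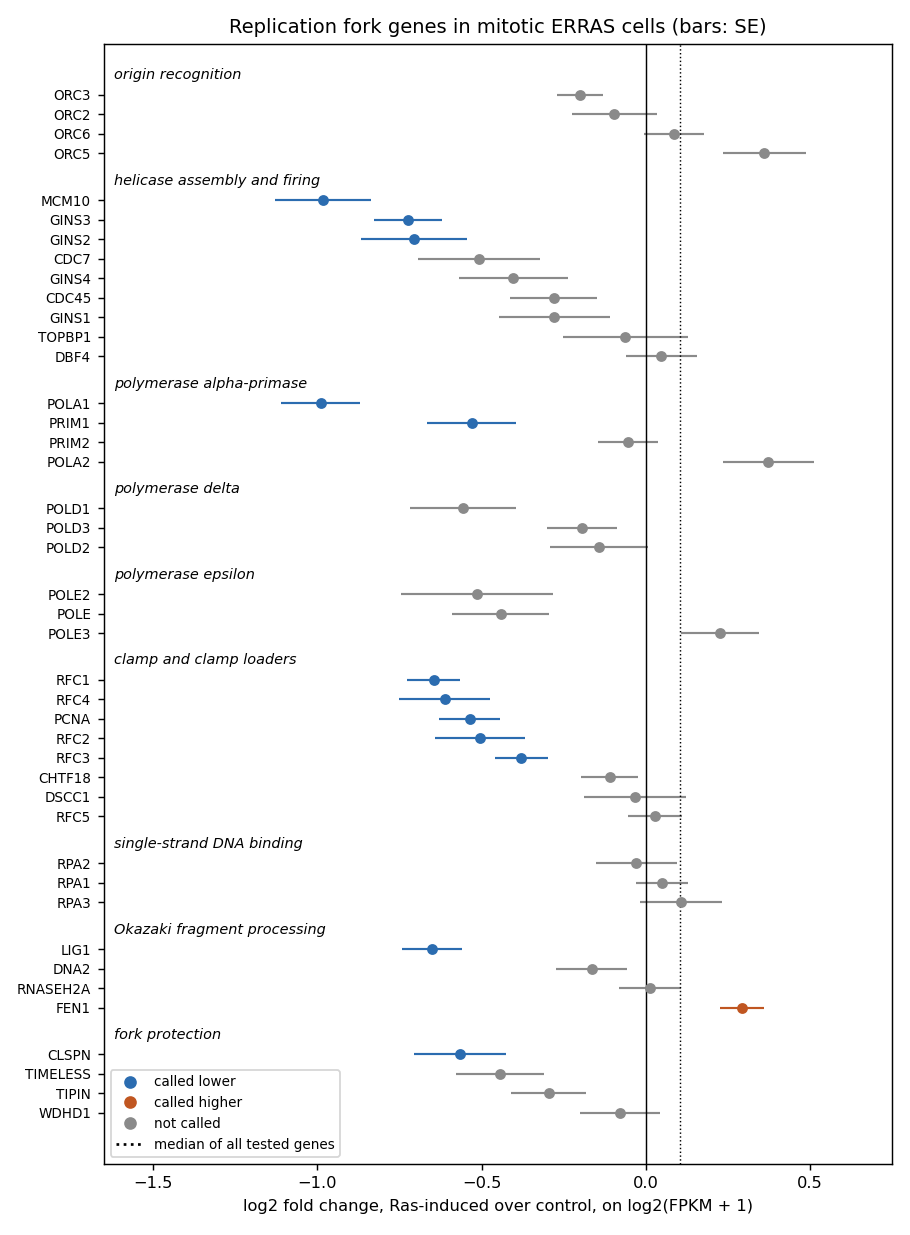
Log2 fold change of Ras-induced over control mitotic cells (x axis, log2(FPKM + 1) scale) for each of the 42 genes (y axis), grouped by role, with points for limma's estimate and bars for its standard error (SE). The 12 genes called lower range from -0.99 for POLA1 to -0.38 for RFC3, and FEN1 at 0.29 is the 1 gene called higher.

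Among the genes that assemble and fire the helicase, 3 of 9 fell. MCM10 (ENSG00000065328, chromosome 10 of GRCh37 from 13203558 to 13253110), which helps the finished helicase start, measured 9.41, 12.6 and 11.3 FPKM in the control libraries and 4.53, 6.05 and 4.78 FPKM in the Ras-induced ones. The groups did not overlap, and the mean in Ras-induced cells was 46.1% of control (log2 fold change -0.98, SE 0.15, adjusted p = 0.009). GINS3 (ENSG00000181938, chromosome 16 from 58328984 to 58440051) was at 9.84, 8.87 and 8.75 FPKM in control and at 5.19, 5.52 and 4.72 FPKM in Ras-induced libraries, a fall to 56.2% of control with a log2 fold change of -0.72 (SE 0.10, adjusted p = 0.0079). GINS2 (ENSG00000131153, chromosome 16 from 85709804 to 85723679) had control values of 9.44, 11.4 and 7.24 FPKM and Ras-induced values of 5.33, 5.57 and 4.91 FPKM. Its log2 fold change was -0.71 (SE 0.16, adjusted p = 0.0316), and the adjusted p exceeded 0.05 without any 1 library other than control library 3 and without a filter on low values. GINS1 and GINS4, the other members of the tetramer, had log2 fold changes of -0.28 and -0.40 with overlapping libraries. GINS4 averaged 25.5 FPKM in control and 19.1 FPKM in Ras-induced cells. It shares 1145 exonic bases with RP11-360L9.7 on the opposite strand, at 25.6 and 21.1 FPKM. The library kit does not mark strand, so the GINS4 values may include reads of that gene.

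The remaining genes of this step did not pass the test. CDC45, the partner of GINS in the helicase, was at 15.1 ± 0.694 FPKM in control and 12.3 ± 2.24 FPKM in Ras-induced cells. CDC7, the kinase that fires origins, was at 8.38 ± 1.05 FPKM and 5.69 ± 1.61 FPKM. Ras-induced library 2 stood above the other Ras-induced libraries in both, at 14.9 FPKM against 11.4 and 10.7 FPKM for CDC45 and at 7.55 FPKM against 4.83 and 4.68 FPKM for CDC7. Without it both were called lower (adjusted p = 0.0494 and 0.0331, limma). DBF4, the regulatory subunit of CDC7, had a log2 fold change of 0.05 (95% interval -0.21 to 0.31), and TOPBP1, which recruits CDC45, one of -0.06 (95% interval -0.52 to 0.39).

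Polymerase alpha-primase held a fall close in size to that of MCM10 and, for another of its subunits, a positive fold change. POLA1 (ENSG00000101868, chromosome X from 24711990 to 25015103), the catalytic polymerase subunit, was at 5.35, 5.19 and 5.59 FPKM in control and at 2.36, 2.35 and 1.94 FPKM in Ras-induced libraries. Every control value was over 5 FPKM and every Ras-induced value under 2.5 FPKM. The log2 fold change was -0.99 (SE 0.12, adjusted p = 0.0051), with the mean at 41.2% of control. PRIM1 (ENSG00000198056, chromosome 12 from 57124222 to 57146158), the catalytic primase subunit, was at 5.58, 6.42 and 5.17 FPKM in control and at 3.69, 4.13 and 3.15 FPKM after induction. Its log2 fold change of -0.53 (SE 0.13) came with an adjusted p of 0.0428, which exceeded 0.05 without any 1 of the 6 libraries, and 139 of its exonic bases are shared with NACA, at 669 FPKM in control and 839 FPKM in Ras-induced cells. POLA2, the regulatory polymerase subunit, measured 22.0, 25.9 and 20.7 FPKM in control and 25.0, 33.9 and 31.1 FPKM in Ras-induced libraries, which overlap by 1 value (log2 fold change 0.37, SE 0.14, adjusted p = 0.116). PRIM2, the large primase subunit, had a log2 fold change of -0.06 (95% interval -0.27 to 0.16).

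Of the 42 genes, the 6 that encode subunits of polymerases delta and epsilon, which extend the primers, did not pass the test, whereas POLD4, a delta subunit outside the 42, rose and is described with the further replication genes. POLD1 (ENSG00000062822, chromosome 19 from 50887461 to 50921275), the catalytic subunit of polymerase delta, was at 19.4, 20.5 and 23.8 FPKM in control and at 12.4, 18.0 and 12.5 FPKM in Ras-induced libraries. The groups did not overlap, but Ras-induced library 2 lay near the controls, and the log2 fold change of -0.56 (SE 0.16) had an adjusted p of 0.0611. Without that library POLD1 was called lower (adjusted p = 0.0227, limma), as it was with upper-quartile scaling or a filter at a mean of 5 FPKM. The accessory subunits POLD2 and POLD3 had log2 fold changes of -0.14 and -0.19. POLE (ENSG00000177084, chromosome 12 from 133200339 to 133263962), the catalytic subunit of polymerase epsilon, was at 19.1, 23.0 and 17.5 FPKM in control and at 14.7, 16.4 and 11.96 FPKM after induction (log2 fold change -0.44, SE 0.15, adjusted p = 0.0877). Its highest Ras-induced value was just under its lowest control value. It was called lower with upper-quartile scaling and with a block for replicate number (adjusted p = 0.0469 and 0.0319, limma). POLE2 had a log2 fold change of -0.51 with Ras-induced libraries spread from 6.02 to 11.3 FPKM, and POLE3, a histone-fold subunit also found in chromatin remodelers, one of 0.23 (95% interval -0.06 to 0.51).

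**Figure D3:**
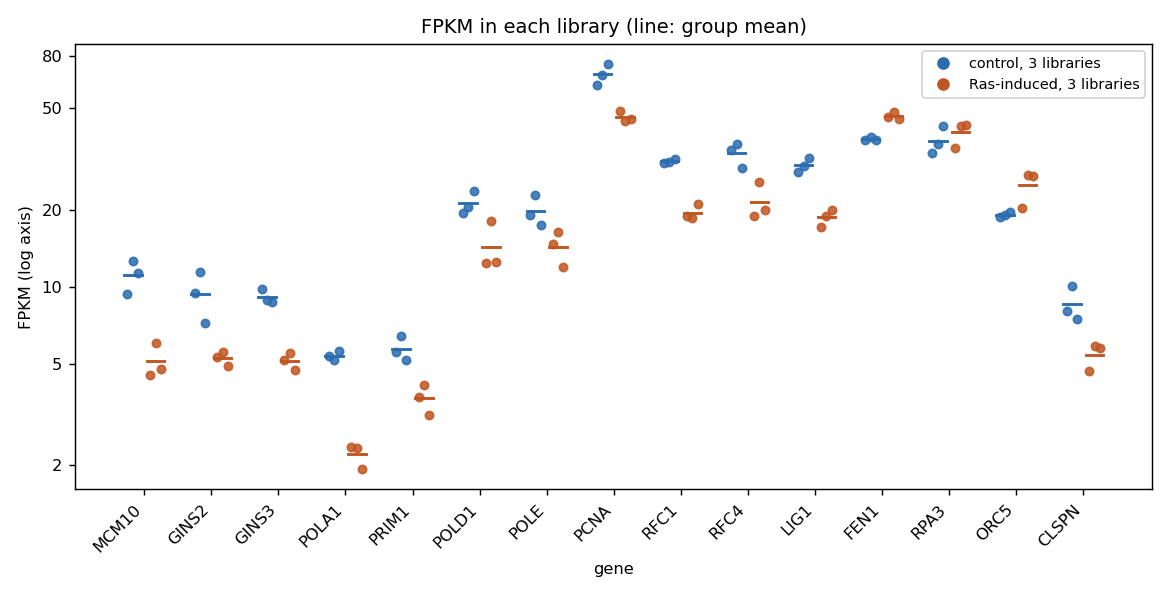
FPKM (y axis, log scale) in each of the 3 control and 3 Ras-induced libraries for 15 replication fork genes (x axis), with a line at each group mean. POLA1 in Ras-induced cells lies between 1.94 and 2.36 FPKM, under all control values of 5.19 FPKM or more, whereas RPA3 overlaps between the groups.

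Among the clamp and its loaders 5 of 8 genes fell, of which RFC1 alone was called without control library 2 or without Ras-induced library 3. PCNA (ENSG00000132646, chromosome 20 from 5095599 to 5107272), the sliding ring that tethers polymerases, measured 61.6, 67.5 and 74.4 FPKM in control and 48.8, 44.6 and 45.6 FPKM in Ras-induced libraries. The lowest control value exceeded the highest Ras-induced value by more than the spread of the Ras-induced libraries, and the log2 fold change was -0.54 (SE 0.09, adjusted p = 0.013). Without control library 2 or Ras-induced library 3 the adjusted p was 0.0505 or 0.0534. RFC1 (ENSG00000035928, chromosome 4 from 39289076 to 39367995), the large subunit of the loader, was at 30.6, 30.8 and 31.7 FPKM in control and at 18.9, 18.5 and 21.1 FPKM after induction (log2 fold change -0.65, SE 0.08, adjusted p = 0.00536). RFC4 (ENSG00000163918, chromosome 3 from 186507669 to 186524847) fell from 34.5, 36.3 and 29.3 FPKM to 19.0, 25.7 and 20.0 FPKM (log2 fold change -0.61, SE 0.14, adjusted p = 0.0306).

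RFC2 and RFC3, also small subunits of the loader, fell by 0.51 and 0.38 on the log2 scale, with adjusted p-values of 0.0495 and 0.0249. RFC3 kept within 19.8 to 20.0 FPKM in the Ras-induced libraries, against 24.8 to 28.2 FPKM in control. The calls of RFC2, RFC3 and RFC4 each depended on the libraries, with adjusted p-values of up to 0.145, 0.0913 and 0.0992 over the alternatives. RFC5, the remaining small subunit, was at 18.8 ± 1.03 FPKM in control and 19.2 ± 0.874 FPKM in Ras-induced cells (log2 fold change 0.03, 95% interval -0.17 to 0.23). CHTF18 and DSCC1, which belong to an alternative loader that works in sister chromatid cohesion, had log2 fold changes of -0.11 (95% interval -0.32 to 0.10) and -0.03 (95% interval -0.40 to 0.34).

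The replication protein A genes, whose products coat single-stranded DNA in replication and repair, had no called member. RPA3 (ENSG00000106399, chromosome 7 from 7676149 to 7758238) was at 33.5, 36.1 and 42.4 FPKM in control and at 35.0, 42.7 and 43.2 FPKM in Ras-induced libraries, which overlapped (log2 fold change 0.11, 95% interval -0.19 to 0.40). RPA1 and RPA2 had log2 fold changes of 0.05 (95% interval -0.14 to 0.24) and -0.03 (95% interval -0.33 to 0.27). A change of 0.5 or more on the log2 scale lies outside each of these intervals.

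The genes that finish lagging strand fragments went in both directions. LIG1 (ENSG00000105486, chromosome 19 from 48618702 to 48673860), the ligase that seals the nicks, was at 28.1, 29.7 and 32.0 FPKM in control and at 17.2, 18.9 and 20.0 FPKM in Ras-induced libraries, a fall to 62.5% of control (log2 fold change -0.65, SE 0.09, adjusted p = 0.00768). FEN1 (ENSG00000168496, chromosome 11 from 61560383 to 61564710), the nuclease that trims the flap before ligation, was at 37.4, 38.6 and 37.5 FPKM in control and at 46.2, 48.1 and 45.4 FPKM after induction. All Ras-induced values of FEN1 lay above all control values, and the log2 fold change was 0.29 (SE 0.07, adjusted p = 0.033). This call held in 3 of 13 alternatives, and was lost after quantile normalization (adjusted p = 0.111, limma) and after upper-quartile scaling (adjusted p = 0.118), with log2 fold changes of 0.18 in both. FEN1 shares 49 exonic bases with FADS2. RNASEH2A, the catalytic subunit of the enzyme that removes RNA primers, was at 49.4 ± 2.09 FPKM and 49.9 ± 5.10 FPKM, and the nuclease and helicase DNA2 had a log2 fold change of -0.17 (95% interval -0.42 to 0.09).

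Promoters of 3 of these genes are printed over the 250 bases before their start site, on the gene's strand, as examples picked to show what a window with and without these letters looks like. Capitals mark E2F words and CCAAT boxes (CCAAT, or ATTGG where it reads on the other strand). PCNA holds 1 E2F word and 3 CCAAT boxes, POLA1 holds 1 of each, and FEN1 holds 0 of either in these bases:
PCNA, chr20:5107269-5107518, minus strand: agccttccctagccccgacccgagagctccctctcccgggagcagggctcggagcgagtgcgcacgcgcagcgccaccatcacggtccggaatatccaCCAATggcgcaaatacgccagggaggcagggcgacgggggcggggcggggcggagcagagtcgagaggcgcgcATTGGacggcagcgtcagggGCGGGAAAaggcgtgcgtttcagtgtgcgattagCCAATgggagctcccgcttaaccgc
POLA1, chrX:24711785-24712034, plus strand: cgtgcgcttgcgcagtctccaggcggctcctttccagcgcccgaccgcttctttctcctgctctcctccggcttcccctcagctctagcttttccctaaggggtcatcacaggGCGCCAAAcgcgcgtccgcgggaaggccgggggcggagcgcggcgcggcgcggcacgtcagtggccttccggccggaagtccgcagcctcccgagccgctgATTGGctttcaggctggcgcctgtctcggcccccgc
FEN1, chr11:61560133-61560382, plus strand: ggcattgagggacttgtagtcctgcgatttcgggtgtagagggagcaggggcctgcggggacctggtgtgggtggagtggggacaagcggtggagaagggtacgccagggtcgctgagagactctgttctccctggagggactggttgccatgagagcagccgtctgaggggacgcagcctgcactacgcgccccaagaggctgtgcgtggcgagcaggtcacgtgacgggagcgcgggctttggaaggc

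Split by call, an E2F word stood in 7 of 12 promoters of genes called lower (PCNA, RFC3, POLA1, LIG1, GINS2, GINS3 and CLSPN) and in 6 of the other 24. CCAAT boxes were found in 58.3% of the promoters of genes called lower and in 54.2% of the others, against 34.6% of all promoters. The cell cycle homology word TTTGAA, on either strand, stood in 1 of the 36 promoters (DBF4) and in 15.2% of all promoters. These are letter matches, not measured binding, and all promoters were not matched to these for base composition. MCM10, RFC1, RFC2, RFC4 and PRIM1, all called lower, hold no E2F word in this window, and POLA2, which was not called, holds one. Whether E2F factors had a part in the falls was not tested. E2F1 itself was at 10.5 ± 3.70 FPKM in control and 4.59 ± 1.88 FPKM in Ras-induced cells (adjusted p = 0.0694, limma).

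The origin recognition genes, whose products mark the sites where replication can start, had no called member. ORC5 (ENSG00000164815, chromosome 7 from 103766788 to 103848495) was at 18.7, 19.0 and 19.5 FPKM in control and at 20.4, 27.5 and 27.2 FPKM in Ras-induced libraries. All Ras-induced values were above the controls, but library 1 was close to them, and the log2 fold change of 0.36 (SE 0.13) had an adjusted p of 0.0991. Without that library ORC5 was called higher (log2 fold change 0.50, adjusted p = 0.0317, limma). ORC3 was 20.1 ± 0.127 FPKM in control and 17.4 ± 0.203 FPKM in Ras-induced cells, a small difference with little spread (log2 fold change -0.20, adjusted p = 0.101), which was called lower after quantile normalization (adjusted p = 0.0373) and upper-quartile scaling. ORC2 and ORC6 had log2 fold changes of -0.10 (95% interval -0.41 to 0.21) and 0.08 (95% interval -0.14 to 0.30).

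Of the genes that protect the moving fork, 1 of 4 fell. CLSPN (ENSG00000092853, chromosome 1 from 36185819 to 36235579), which encodes the checkpoint mediator claspin, was at 8.08, 10.1 and 7.51 FPKM in control and at 4.68, 5.84 and 5.77 FPKM after induction (log2 fold change -0.57, SE 0.14, adjusted p = 0.0398). The groups were apart, yet the adjusted p was 0.0691 to 0.119 without any 1 library other than control library 3. TIMELESS and TIPIN, which form 1 complex at the fork, both lay apart downward, with log2 fold changes of -0.44 (adjusted p = 0.0681) and -0.30 (adjusted p = 0.125). TIMELESS was called lower in 4 of 13 alternatives, among them after quantile normalization, upper-quartile scaling and a filter at a mean of 5 FPKM (adjusted p = 0.0408, 0.036 and 0.0497, limma). WDHD1, which couples polymerase alpha to the helicase, was at 12.3 ± 2.04 FPKM and 11.5 ± 0.0477 FPKM.

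Ratios between genes that work together were also taken within each library, for pairs picked because their fold changes differed, so that they describe the values and are no separate test of them. The ratio of POLA1 to POLA2 was 0.243, 0.201 and 0.270 in the control libraries and 0.0947, 0.0693 and 0.0622 in the Ras-induced ones, a difference of -1.67 on the log2 scale. RFC1 over RFC5 was 1.65 ± 0.0878 in control and 1.01 ± 0.0465 after induction. LIG1 over FEN1, separate enzymes of the same step, was 0.791 ± 0.0535 and 0.402 ± 0.0350, and POLE over POLE3 was 0.499 ± 0.0312 and 0.309 ± 0.0443. These ratios are of values per transcript length within 1 library, so the scaling between libraries does not enter them. In all, 9 ratios were computed, and in 8 of them the groups did not overlap. With 3 libraries against 3 an exact permutation test cannot go below p = 0.1, so none was used to call a ratio. The exception was GINS3 over GINS1, where Ras-induced library 2 lay within the controls.

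**Figure D4:**
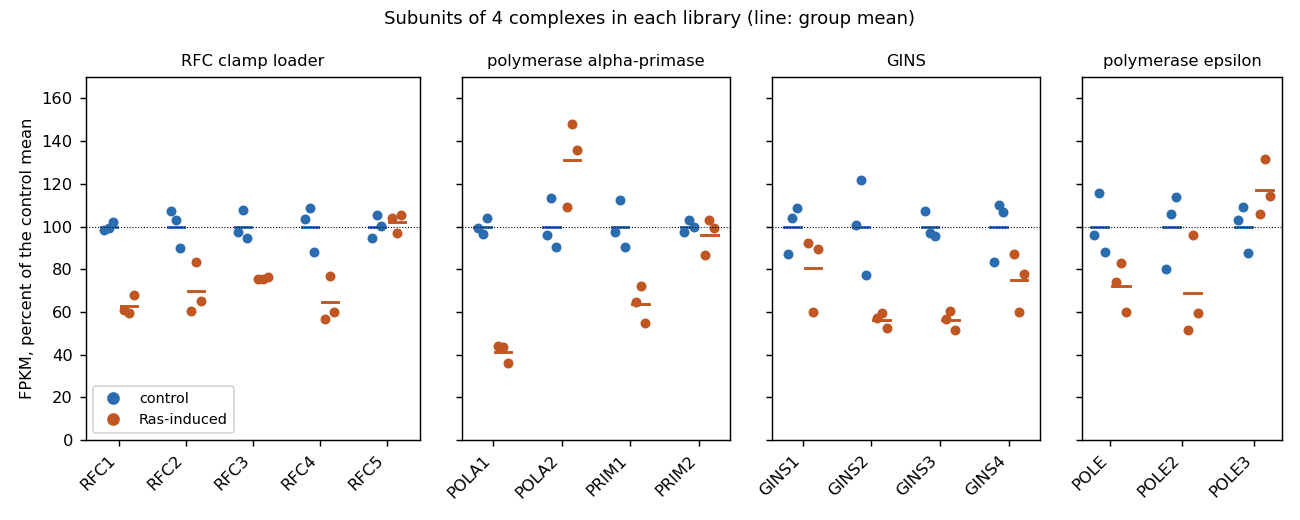
FPKM of each subunit in each library as a percent of its control mean (y axis, from 0) for the RFC clamp loader, polymerase alpha-primase, GINS and polymerase epsilon (x axis, subunits), with a line at each group mean. POLA1 in Ras-induced cells averages 41.2% of control and POLA2 131%, and RFC1 averages 62.9% while RFC5 averages 102%. GINS4 shares 1145 exonic bases with RP11-360L9.7.

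Levels per transcript length differed over a wide range. In control mitotic cells the group means ran from 5.28 FPKM (DNA2) to 81.6 FPKM (POLD2), with a median of 20.3 FPKM. The order at the top was POLD2 (81.6 ± 12.5 FPKM), DBF4 (68.3 ± 7.61 FPKM) and PCNA (67.8 ± 6.38 FPKM), neighbors whose libraries overlapped, followed by RPA1 (53.8 ± 3.90 FPKM). In Ras-induced cells POLD2 and DBF4 kept ranks 1 and 2, PCNA moved from rank 3 to rank 8, and MCM10 from rank 31 to rank 39 of 42. The lowest gene was then POLA1, at 2.22 ± 0.242 FPKM. The 42 genes together held 1017 to 1085 FPKM in control and 884 to 1010 FPKM in Ras-induced libraries. The median coefficient of variation between libraries was 9.29% in control and 11.3% in Ras-induced cells.

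Across the rest of the pathway, 42 further DNA replication genes were tested, of which 14 fell and 1 rose, beside 5.67% and 11% of all genes. The licensing genes, which load the MCM ring in G1 or control that step, as geminin (GMNN) does by inhibiting CDT1, held 7 of these falls among 11 genes (CDT1, GMNN, MCM2, MCM3, MCM5, MCM6 and MCM7), with a median log2 fold change of -0.61. MCM3, part of the ring, went from 29.0, 35.5 and 31.8 FPKM to 11.01, 14.5 and 11.9 FPKM (log2 fold change -1.30, adjusted p = 0.00287). MCM6 went from 7.91, 10.7 and 8.07 FPKM to 3.02, 3.29 and 2.98 FPKM (log2 fold change -1.26, adjusted p = 0.00384), and CDT1, which brings the ring to origins, from 23.6, 31.9 and 20.9 FPKM to 9.42, 12.3 and 8.72 FPKM (log2 fold change -1.24, adjusted p = 0.0094). The 15 further fork subunits had 3 falls (DBF4B, MCMBP and RNASEH2B) and the 1 rise. That rise was POLD4, the smallest subunit of polymerase delta, which was at 35.7, 39.9 and 26.2 FPKM in control and at 66.4, 77.2 and 68.5 FPKM in Ras-induced libraries (log2 fold change 1.06, adjusted p = 0.00931). Of 4 genes of chromatin assembly in S phase CHAF1B and ASF1B fell, of 4 topoisomerases TOP2A, and of 8 further polymerases, mostly translesion enzymes, POLQ. The count of falls here ranged from 6 to 11 when 1 library was left out, and was 6 without control library 1 or 2, 8 without Ras-induced library 1 and 7 without Ras-induced library 3.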

How the data were processed

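Poly(A) RNA from 6 libraries was sequenced by the authors as paired-end reads. The submitters' processing notes and the study's methods name Trim Galore 0.3.0, TopHat2 with hg19 and an Ensembl transcriptome, and Cufflinks, from which the authors deposited FPKM per gene and library; scaling between libraries is not given in the sources used here. The library kit does not mark strand, so overlapping genes share reads: 11 of the 42 genes overlap exons of another gene of at least 1 FPKM. The columns name group and number, not sample, and were used as replicates of their group, which the study describes as independent repeats. A second header line, 120 rows with more than 6 values and 18 unnamed columns were left out. The authors' cuffdiff comparison (group FPKM, fold changes, p-values and q-values) was not used. Read counts were not used here. The commonest ratio between low FPKM values put the depth of the libraries at 0.847 to 1.17 of the first control library. The 0.847 belongs to Ras-induced library 2 and is weakly determined. There 3.66% of low genes held the commonest ratio and 3.07% the next.

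After genes averaging under 1 FPKM were dropped, log2(FPKM + 1) values went into limma 3.58.1 under R 4.3.3 (mean-variance trend, two-sided, Benjamini-Hochberg over 13993 genes, threshold 0.05); standard errors, adjusted p-values and 95% intervals without another name are from this fit. The procedure was tested on simulated data. The genes and lists were chosen with earlier results of these data known. Named with every library's value were PCNA, the 10 called genes of largest fall, up to 5 of largest rise, and in each role group the gene of lowest adjusted p; among further replication genes the 3 of largest change. Values by library of POLA2, POLD4, CDC45 and CDC7, and the ratios between genes, were added after they were seen. Alternatives were another pseudocount (0.1), other filters, quantile and upper-quartile scaling, no trend, a replicate block, each library left out and a required change of at least 1 on the log2 scale. Same-numbered libraries did not deviate together across genes, so the block is not used. Coordinates are from a GENCODE annotation on GRCh37, the build of hg19. Promoters are from RefSeq (GRCh38.p14), matched by symbol, taking the first listed where 7 genes had several, and placed on GRCh37 by exact match. Tables were made in Python 3.11.15 (pandas 2.3.3, scipy 1.17.1), figures in matplotlib 3.10.9.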

Additional observations from a re-analysis of the deposited data

How the results depend on the processing

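Over 13 alternative fits and 42 genes, 479 of 543 fitted values kept the call of the reported fit, 49 lost it and 15 gained it, and no called gene changed direction. The count of falls was 12; it was 7 without a filter on low values and 0 with a change of at least 1 on the log2 scale required (POLA1 and MCM10 pass that size with a pseudocount of 0.1 and under both scalings), and 5 to 12 when 1 library was left out. The count of rises, 1 (FEN1), was 0 without a trend, with quantile normalization, with upper-quartile scaling, with the replicate block and with that size requirement. When 1 library was left out it was 0 to 1, with FEN1 lost each time (adjusted p = 0.0517 to 0.0961, limma) and ORC5 the 1 rise, without Ras-induced library 1. The median log2 fold change of -0.24 became -0.34 under both scalings, where the median of all tested genes moved from 0.10 to 0.01 (quantile) and 0.0047 (upper quartile). For the further replication genes, falls numbered 8 without a filter, 3 with the size requirement and 6 to 11 with 1 library left out, and rises 2 with a mean of at least 5 FPKM, with a pseudocount of 0.1 and with the replicate block, and 1 to 2 with 1 library left out. Counting all tested genes called, 2336 became 1518 without a filter, 548 with the size requirement, and 998 to 1956 with 1 library left out. The cause was not tested, beyond the fewer samples or other gene numbers of those fits. Labels do not pair the libraries, and deviations of same-numbered libraries correlated at -0.00266, 0.0434 and 0.0481 across genes. The replicate block gave 13 falls and 0 rises among the 42 genes, with POLE and TIMELESS gained (adjusted p = 0.0319 and 0.0363, limma) and RFC2 lost (0.0522). Absolute depth is unknown, which limits genes of few FPKM such as POLA1 and PRIM1 most.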

Other observations

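Ras-induced library 2 held the highest of the 3 Ras-induced values in 26 of the 42 genes, and control library 2 the highest control value in 23. CDC45, CDC7, POLD1 and POLE2 were each called lower when Ras-induced library 2 was left out and not in the reported fit, and of these POLD1 was also called with upper-quartile scaling and with a mean of at least 5 FPKM required. ORC5 was called higher without Ras-induced library 1 and in no other fit.

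The mitotic gene CDK1 was listed at 3.68 ± 1.99 FPKM (mean ± SD over 3 libraries) in control and 2.73 ± 1.02 FPKM in Ras-induced cells, and TOP2A at 9.60 ± 0.637 FPKM and 5.90 ± 1.29 FPKM, whereas CCNB1, the cyclin partner of CDK1, was at 549.7 ± 34.6 FPKM and 482 ± 38.8 FPKM. Both genes were chosen for mention after their values were seen. Without the reads it was not tested how these levels arose.

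Of pseudogene copies of the 42 genes, 10 were listed for 6 genes. The highest was DBF4P1, at 1.62 FPKM in control cells, against 68.3 FPKM for DBF4.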
